A study of Mus musculus with 9 samples.

Results

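Acot1, Acot2, Acot3 and Acot4 are 4 neighbouring genes on mouse chromosome 12 that encode acyl-CoA thioesterases. They were taken by symbol from the deposited table of liver genes that differed between 2 genotypes, and they are 4 of the 1525 genes with a value in that table. The genes of that table were selected on the difference between their genotype means, and the cluster was chosen by the same values, so these are given as a description, with no test. The question was how far each gene of the cluster differed between the genotypes, whether the 4 genes moved to the same extent, and how they stood beside other genes of fatty acid handling.

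Livers of adult C57BL/6 mice were profiled by RNA-seq, with 5 control and 4 Alb-D2KO libraries. Every mouse carried Cre recombinase under the albumin promoter. Control mice carried Cre alone, and Alb-D2KO mice also carried a floxed Dio2 gene, which encodes the type 2 deiodinase that turns thyroxine into the active thyroid hormone. Recombination follows the albumin promoter, which is active in hepatocytes, and cells in which it was never active keep Dio2. Each library was labelled as a separate animal, while an age beyond adult and the sex were not given in the labels. In whole liver, fewer cells of a type and less RNA per cell cannot be told apart. Dio2 has no value in the table, so it gives no check of the genotype labels.

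Acyl-CoA thioesterases cut acyl-CoA into a free acid and coenzyme A, and so set the balance between both in each compartment of the cell. Acot1 encodes a cytosolic enzyme for long-chain acyl-CoA, and Acot2 its close relative in the mitochondrial matrix. Acot3 and Acot4 encode peroxisomal enzymes, and that of Acot4 is known for cutting succinyl-CoA and glutaryl-CoA. In mouse liver these genes are known targets of the fatty acid receptor PPAR-alpha and are induced by fasting and by fibrate drugs.

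In the GENCODE M21 annotation of the mm10 build, the cluster ran from 83987861 to 84060402 on chromosome 12, a span of 72.5 kb, with all 4 genes on the + strand. Acot2 (ENSMUSG00000021226.7) came first, at chr12:83987861-83993873. Acot1 (ENSMUSG00000072949.6) followed after a gap of 15.6 kb, at chr12:84009490-84018371. Acot4 (ENSMUSG00000052392.5) lay a further 20.01 kb on, at chr12:84038379-84048601, and Acot3 (ENSMUSG00000021228.15) only 3.54 kb beyond it, at chr12:84052144-84060402. The longest coding transcripts of Acot1, Acot2 and Acot4 had 3 exons, and that of Acot3 had 4. Their coding parts were of similar length, from 1257 bases in Acot1 to 1359 bases in Acot2, whereas the transcripts ranged from 2196 bases in Acot2 to 6203 bases in Acot4. Dio2 lies on the same chromosome, at chr12:90724552-90738438, which starts 6.66 Mb beyond the end of the cluster.

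The 250 bases before each RefSeq transcription start, on GRCm38.p6 and the + strand, are shown because the 4 genes shared a direction but not a size of difference. Capitals mark matches, on either strand, to the motifs searched. The windows are chr12:84009252-84009501 for Acot1, chr12:83987611-83987860 for Acot2, chr12:84051894-84052143 for Acot3 and chr12:84038129-84038378 for Acot4. For Acot3, which has 2 starts in the RefSeq table, the most upstream one was used.
Acot1: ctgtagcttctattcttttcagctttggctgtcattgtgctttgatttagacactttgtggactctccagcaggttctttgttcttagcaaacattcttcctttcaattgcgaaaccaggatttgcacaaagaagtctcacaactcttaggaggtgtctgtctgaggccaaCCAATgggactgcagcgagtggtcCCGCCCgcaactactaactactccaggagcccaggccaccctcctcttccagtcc
Acot2: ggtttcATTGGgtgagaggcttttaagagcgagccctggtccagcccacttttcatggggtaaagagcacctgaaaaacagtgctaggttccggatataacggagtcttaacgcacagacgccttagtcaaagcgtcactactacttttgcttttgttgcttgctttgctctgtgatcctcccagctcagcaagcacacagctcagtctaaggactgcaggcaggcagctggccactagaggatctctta
Acot3: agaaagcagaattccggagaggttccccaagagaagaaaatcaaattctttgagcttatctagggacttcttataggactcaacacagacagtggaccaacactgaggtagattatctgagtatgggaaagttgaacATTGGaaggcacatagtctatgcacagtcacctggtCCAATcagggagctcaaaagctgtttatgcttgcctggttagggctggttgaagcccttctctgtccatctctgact
Acot4: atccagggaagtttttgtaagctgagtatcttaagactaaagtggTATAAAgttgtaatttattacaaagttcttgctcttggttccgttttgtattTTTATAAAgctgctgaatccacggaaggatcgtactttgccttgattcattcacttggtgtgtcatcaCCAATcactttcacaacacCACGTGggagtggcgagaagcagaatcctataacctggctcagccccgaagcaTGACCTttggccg

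All 4 windows held the letters CCAAT, which were also present in 33.8% of 32851 mouse promoter windows of the same length. In Acot1 this match lay 79 to 75 bases before the start, in Acot3 77 to 73 bases before it, and in Acot4 85 to 81 bases before it. In Acot2 the match lay on the reverse strand, 244 to 240 bases before the start, and Acot3 had a further reverse-strand match at 113 to 109 bases. The hexamer AGGTCA, to which nuclear receptors bind, was present only in the Acot4 window among the 4, on the reverse strand 13 to 8 bases before the start, and in 14.02% of all windows. The Acot4 window also held the E-box CACGTG (6.02% of all windows) and 3 matches to TATAAA (12.4% of all windows), of which 2 overlapped on opposite strands. The Acot1 window held the GC box GGGCGG on the reverse strand (32.7% of all windows). The direct repeats AGGTCANAGGTCA, as bound by PPAR-alpha, and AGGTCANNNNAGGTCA, as bound by thyroid hormone receptor, were in 0 of the 4 windows, and in 0.0335% and 0.0152% of all windows. The absence of these letters from a window says nothing about binding of a receptor there or elsewhere.

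The values are estimated read counts per gene, given by the authors as the mean of each genotype, without scaling to a common depth. They carry no SD per gene. Beside each ratio of Alb-D2KO mean to control mean stands an exact binomial 95% interval on the summed counts, which covers counting error only and not the spread between animals. Control libraries held 43000802 to 54504351 total reads and Alb-D2KO libraries 40234632 to 50322325. Reads assigned to genes were taken as the part of all reads that lay fully inside exons. Their mean was 33491489 ± 3199891 (SD, n = 5) for control and 31223823 ± 3447611 (SD, n = 4) for Alb-D2KO libraries, a ratio of 0.932. The difference of -0.10 on the log2 scale did not pass an exact two-sided permutation test over the 9 libraries (p = 0.302, and 0.302 after Benjamini-Hochberg adjustment over 6 library measures). Since the member values are not scaled for depth, each is also given divided by the ratio of depths. The depth ratio ranged from 0.890 for the median count over genes to 0.932 for assigned reads.

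All 4 genes had lower means in Alb-D2KO than in control, and 89.4% of all listed genes did so as well. The ratio of means was lowest for Acot3 and highest for Acot4. In the means as deposited, Acot1, Acot2 and Acot3 were at least 2-fold lower, as were 16.3% of listed genes. Acot4 had the mildest ratio of the cluster, and 23.5% of listed genes had a ratio at or below it. The table held genes with fold changes of 1.21 or more that also passed a p-value cut-off of the study. The median ratio of its genes was 0.686.

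Acot4, the peroxisomal thioesterase for short dicarboxylic acyl-CoA, was the most abundant member. Its mean estimated count was 1556.58 per control library and 854.617 per Alb-D2KO library, with 11201.4 counts summed over the 9 libraries. The ratio was 0.549 (0.527 to 0.572), a log2 difference of -0.87, or 1.82-fold lower. As deposited, this was the only member less than 2-fold lower, while Acot1 and Acot2 were so too under some measures of depth. Divided by the 4 ratios of depth, the value was 0.589 to 0.617.

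Acot1, the cytosolic enzyme, averaged 517.273 counts in control and 239.835 in Alb-D2KO. The ratio was 0.464 (0.430 to 0.499), or 2.16-fold lower, from 3545.7 summed counts. Its position relative to a 2-fold difference depended on depth, since the ratio was 0.497 after division by the ratio of assigned reads and 0.503 to 0.521 after division by the other 3.

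Acot2, the mitochondrial enzyme, was measured from the fewest reads, 804.646 in all. It averaged 117.852 counts in control and 53.8467 in Alb-D2KO. The ratio was 0.457 (0.388 to 0.534), or 2.19-fold lower, and 0.490 to 0.514 after division by the depth ratios. Its counting interval spans that of Acot1, so the ratios of Acot1 and Acot2 could not be separated at this depth.

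Acot3, the other peroxisomal enzyme, stood apart from the rest of the cluster. It averaged 181.108 counts in control and 26.9184 in Alb-D2KO. The ratio was 0.149 (0.121 to 0.182), a log2 difference of -2.75, or 6.73-fold lower. Its counting interval lay below those of the other 3 members, and division by the depth ratios gave 0.159 to 0.167. From the lowest ratio, Acot3 ranked 3 of the 1525 listed genes and 2 of the 1320 with a summed count of at least 100. It was the lowest of the 881 with at least 1000. Its own summed count of 1013.21 was the smallest of those 881 and came mostly from control. Its place at that minimum therefore rests on the group where it was high.

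**Figure D1:**
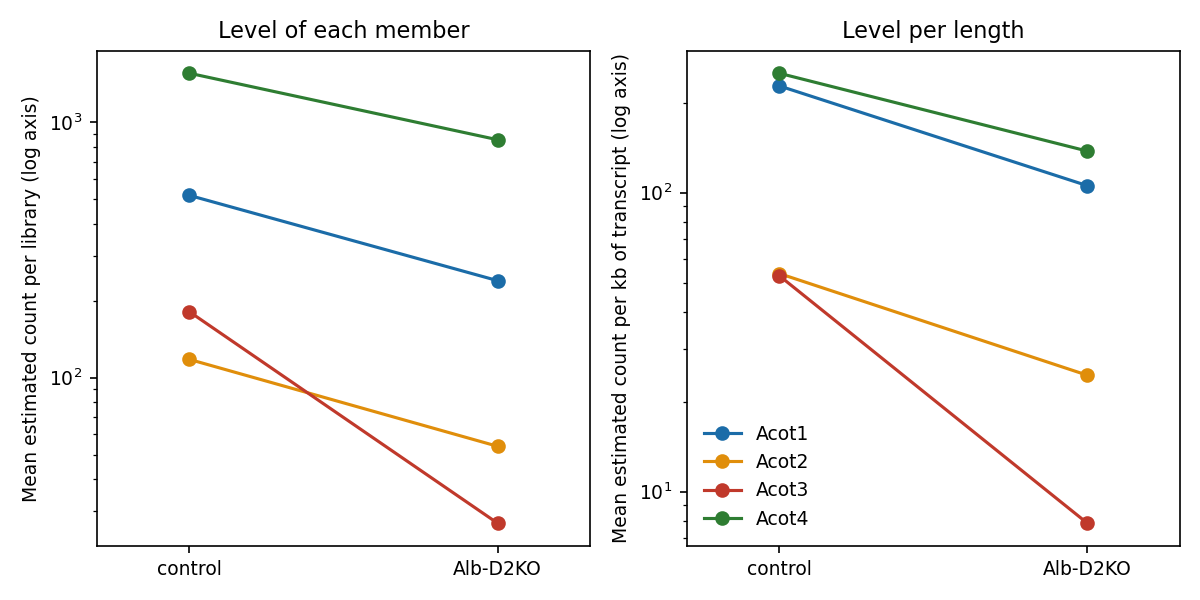
Mean estimated count per library (left) and the same per kilobase of transcript (right) for Acot1 to Acot4 in control (5 libraries) and Alb-D2KO (4 libraries), on log axes. Points are the authors' genotype means, with no error bar because no value per library was used. The lines of Acot1, Acot2 and Acot4 run nearly parallel, while that of Acot3 drops more steeply, from 181.108 to 26.9184 counts. It crosses the line of Acot2 in the left panel, and per kilobase it starts just below Acot2, at 52.8 against 53.7.

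Ratios between members within a genotype do not depend on depth. Acot1 exceeded Acot2 by 4.39-fold in control and 4.45-fold in Alb-D2KO, so their proportion was nearly the same in both genotypes. Acot4 exceeded Acot1 by 3.01-fold in control and 3.56-fold in Alb-D2KO. Pairs with Acot3 moved most. Acot4 exceeded Acot3 by 8.59-fold in control and 31.7-fold in Alb-D2KO, and Acot1 exceeded Acot3 by 2.86-fold and 8.91-fold. Acot2 had 0.651 of the Acot3 count in control and 2.0 times that count in Alb-D2KO. These are proportions of counts, which also grow with transcript length.

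Levels of different genes were compared per kilobase of the longest coding transcript. On this scale Acot4 and Acot1 were close in control, at 250.9 and 227.7 counts per kilobase, and so were Acot2 and Acot3, at 53.7 and 52.8. In Alb-D2KO the levels were 137.8 for Acot4, 105.6 for Acot1, 24.5 for Acot2 and 7.85 for Acot3. The order per kilobase was thus Acot4, Acot1, Acot2, Acot3 in both genotypes, with Acot2 and Acot3 nearly level in control, at a proportion of 1.02, and 3.13 in Alb-D2KO. The range from the highest to the lowest member widened from 4.75-fold to 17.6-fold. With no value per library, whether neighbours in that order differ beyond the spread between animals was not tested. The gap between Acot4 and Acot1 depended on the length used. Over the merged exons of all transcripts, Acot1 had 132.0 counts per kilobase in control and Acot4 had 233.2.

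The summed count of the 4 genes averaged 2372.82 in control and 1175.22 in Alb-D2KO. The ratio was 0.495 (0.479 to 0.512), or 2.02-fold lower, and 239 listed genes had a lower ratio. Division by the depth ratios gave 0.531 to 0.557. Acot4 supplied 65.6% of the summed count in control and 72.7% in Alb-D2KO, and accounted for 58.6% of the difference of 1197.6 counts. Acot3 supplied 7.63% in control and 2.29% in Alb-D2KO. Without Acot4 the sum went from 816.232 to 320.6, a ratio of 0.393, and the geometric mean of the 4 ratios, which weights each gene equally, was 0.363. The sum of Acot1 and Acot2 had a ratio of 0.462. The sum of the peroxisomal genes Acot3 and Acot4 had a ratio of 0.507, although it combined the lowest and the highest ratio of the cluster.

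**Figure D2:**
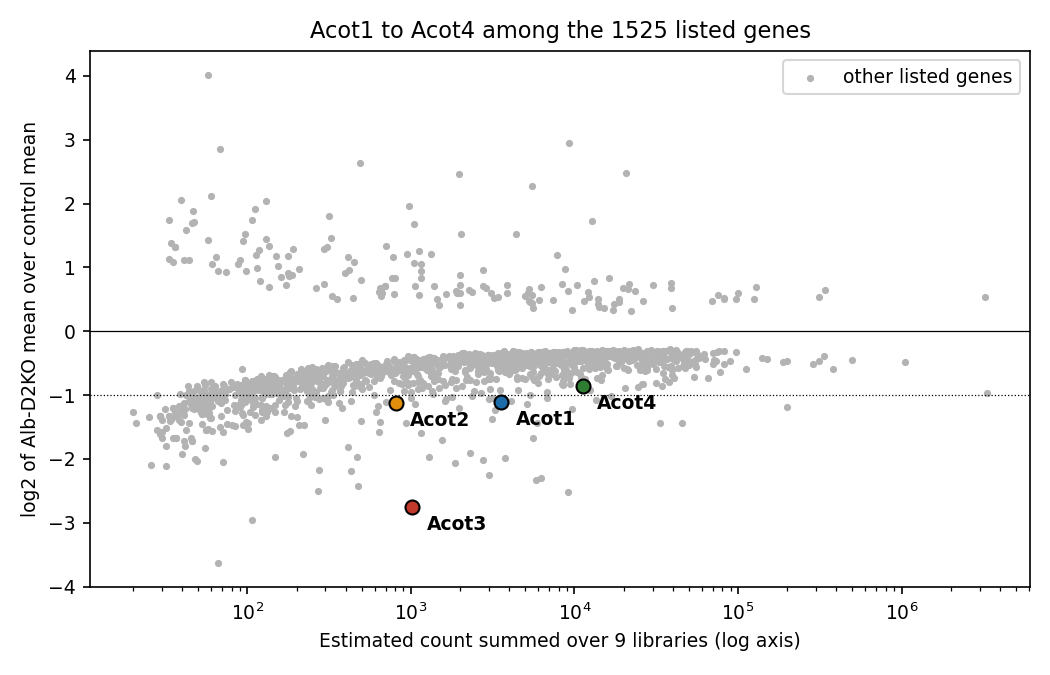
The log2 ratio of Alb-D2KO to control mean against the estimated count summed over 9 libraries (log axis) for the 1525 listed genes, with Acot1 to Acot4 coloured and a dotted line at 2-fold lower. Grey points spread further from 0 at low counts, and at about 1000 summed counts Acot3 lies at -2.75, below the grey points of similar level.

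Differences of at least 2-fold were most frequent among listed genes with few reads. The study listed genes by a fold change and a p-value cut-off, and a gene with few reads generally needs a larger difference to pass. The shares by level therefore describe selected genes, not all genes of that level. Of the 205 genes with fewer than 100 summed counts, 62.4% were at least 2-fold lower. The share was 19.1% of 439 genes from 100 to 1000 counts, the range of Acot2. It was 5.61% of 553 genes from 1000 to 10000 counts, the range of Acot1 and Acot3, and 1.29% of 309 genes from 10000 to 100000 counts, the range of Acot4. Of the 19 genes with more counts, 5.26% were at least 2-fold lower. Each member was therefore also set beside the listed genes within 2-fold of its own summed count. A lower ratio was found in 0 of 254 such genes for Acot3, in 13 of 349 (3.72%) for Acot1, in 16 of 257 (6.23%) for Acot2 and in 11 of 313 (3.51%) for Acot4. The members were chosen by the same means, so these shares only describe where they stood. The summed count of Acot3 came mostly from control, so the genes set beside it follow from the group where it was high.

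By the rule of nearest log2 ratio among genes with at least 1000 summed counts, the 3 genes most like the summed cluster were Rapgef4os2, Prlr and Smad9. Likeness here rests on only 2 genotype means. Rapgef4os2, annotated opposite Rapgef4, went from 339.482 to 168.272 counts (0.496). Prlr, the prolactin receptor, went from 2410.94 to 1191.71 counts (0.494), at nearly the level of the summed cluster. Smad9, which encodes a signal transducer of bone morphogenetic proteins, went from 762.2 to 380.25 counts (0.499).

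The 4 genes resemble each other in sequence, which bears on how reads were divided among them. The coding parts of Acot1 and Acot2 were identical at 95.6% of aligned bases (1181 of 1236). Acot3 was closer to Acot5 (85.4%) than to Acot1 (84.0%) or Acot2 (84.2%), and Acot4 was identical to the other 3 members at 74.2% to 75.4%. Of all 31-base words in the exons of Acot2, 37.8% also occurred in another gene and 29.9% in Acot1. The corresponding share with any other gene was 22.8% for Acot1, 25.2% for Acot3 and 17.9% for Acot4. The pair with the most shared sequence, Acot1 and Acot2, was also the pair with the nearest ratios, at 0.464 and 0.457. The part of read division between them in these values was not tested.

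**Figure D3:**
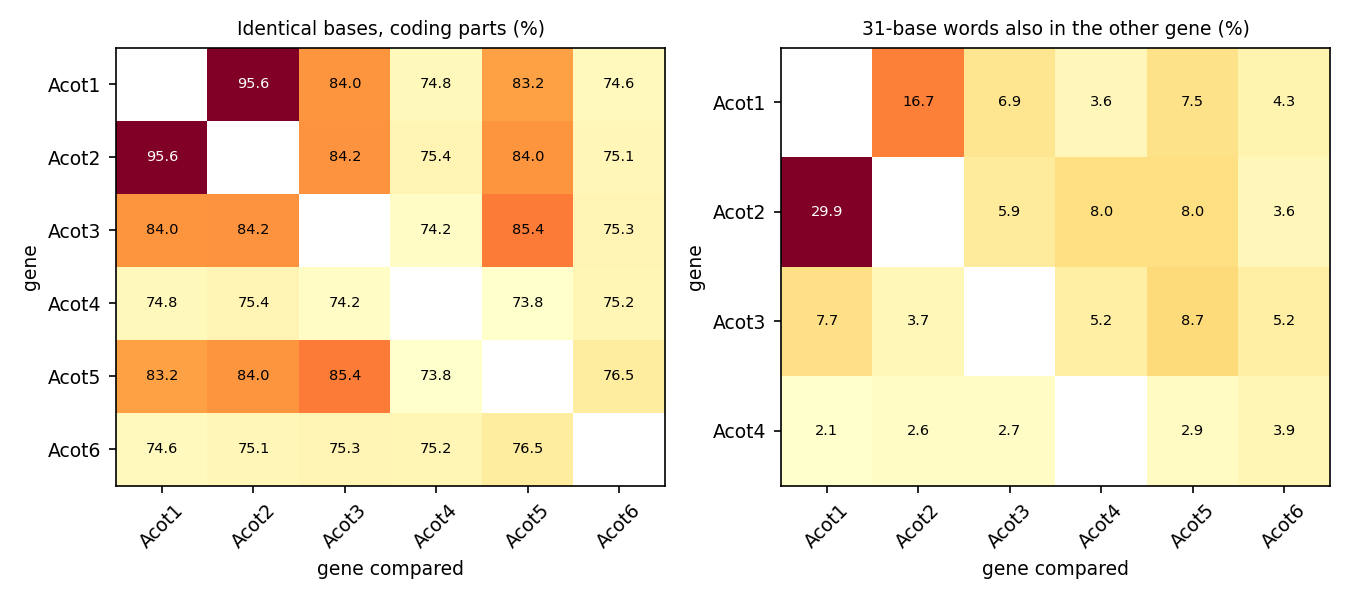
Percent of identical bases in aligned coding parts (left) and percent of the 31-base words of the gene named on the y axis that also occur in the gene named on the x axis (right), for Acot1 to Acot4 with the neighbours Acot5 and Acot6. Acot1 and Acot2 stand out at 95.6% identity, and 29.9% of the Acot2 words occur in Acot1.

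Other genes overlap the end of the cluster that holds Acot4 and Acot3. The antisense gene 4732463B04Rik (ENSMUSG00000097762.1, chr12:84039469-84053807, - strand) shares 615 exonic bases with Acot4 (9.21% of its merged exons) and 312 with Acot3 (9.08%). It was listed as well, at 87.3 counts in control and 52.4 in Alb-D2KO, a ratio of 0.601 (0.507 to 0.710). Whether the counting used strand is not stated, so reads in the shared bases may belong to either strand. Its level was lower than those of Acot4 and Acot3 in control, and it lay above Acot3 in Alb-D2KO. Gm49366, which spans Acot4 and Acot3 on the + strand, shares 396 exonic bases with Acot3 (11.5%) and 33 with Acot4 (0.494%), and has no value here. The part of these overlaps in the ratios of Acot3 and Acot4 was not tested.

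The thioesterase neighbours Acot5 and Acot6, which lie next on the + strand, were not in the table and have no value here. Dnal1, which encodes an axonemal dynein light chain, was the next listed gene, 54.0 kb beyond the cluster, at 37.4 counts in control and 21.5 in Alb-D2KO (ratio 0.575, 0.440 to 0.746). Aldh6a1, a mitochondrial enzyme of valine breakdown 370.3 kb away, went from 10034.1 to 8063.85 counts (0.804). Fcf1, a ribosomal RNA processing factor 910.5 kb away, went from 282.958 to 218.988 counts (0.774). The pseudogene Gm47748, lying before the cluster, was higher in Alb-D2KO but rested on 36 counts in all, at 2.4 in control and 6 in Alb-D2KO. None of the 3 listed protein-coding neighbours within 1 Mb was 2-fold lower, beside 103 of 1048 listed protein-coding genes on all chromosomes. With so few neighbours listed, this does not set the cluster apart from its surroundings.

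Of the 35 protein-coding genes within 1 Mb of the cluster, leaving out the members, 3 were listed (8.57%), all lower in Alb-D2KO. Between the cluster and Dio2, 7 of 87 protein-coding genes were listed (8.05%), 6 of them lower. On chromosome 12 as a whole, 59 of 643 protein-coding genes were listed (9.18%), and on all chromosomes 1048 of 21924 (4.78%). Of the 643 protein-coding genes of the chromosome, 3 were listed as at least 2-fold lower, namely Acot1, Acot2 and Acot3. On all chromosomes 103 of 21924 were, a similar share. After division by the ratio of total reads, Acot1 (0.515) and Acot2 (0.508) were just short of 2-fold lower.

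**Figure D4:**
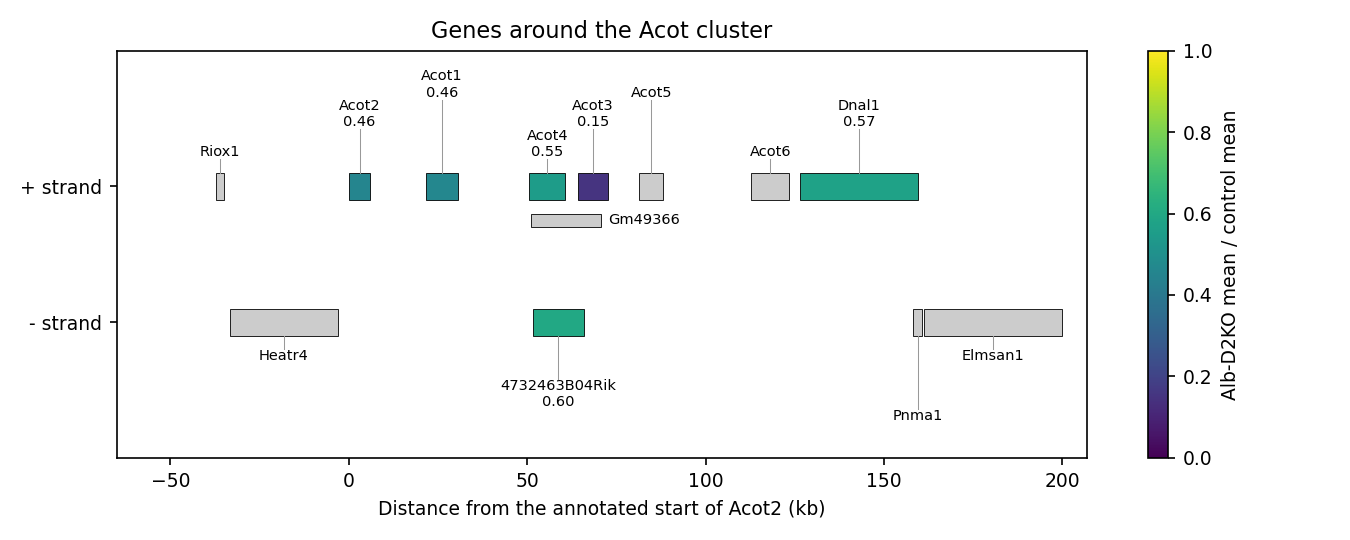
Genes around the cluster by strand, against the distance in kb from the annotated start of Acot2. Colour and the number under each name give the ratio of Alb-D2KO to control mean, and grey genes have no value here. Acot3 (0.15) lies beside Acot4 (0.55), and both are overlapped by 4732463B04Rik (0.60) and Gm49366.

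Other genes of fatty acid and coenzyme A handling were read from fixed lists, chosen with earlier results of these data known. As background to the counts, 4.78% of all annotated protein-coding genes were listed, whether or not they are expressed in liver. Of listed genes, 89.4% were lower. The median ratio was 0.686 over all listed genes and 0.665 over the lower ones alone. The median over all listed genes depended on level. It was 0.465 below 100 summed counts and 0.593 from 100 to 1000 counts. It was 0.729 from 1000 to 10000 counts and 0.768 from 10000 to 100000 counts. Of 12 other acyl-CoA thioesterases, Acot12, which encodes a cytosolic acetyl-CoA hydrolase of the liver, was the only one listed. It went from 3164.97 to 2492.75 counts, a ratio of 0.788, which was higher than that of any gene of the cluster. Acyl-CoA synthetases run the opposite reaction of the thioesterases, and 6 of 21 were listed, all lower. Their ratios were 0.468 to 0.773. The median of 0.734 was above that of all listed genes, but within the 0.729 to 0.768 of the levels from 1000 to 100000 counts. The 4 most abundant of them were Acsl1 for long-chain fatty acids (0.722), Acss2 for acetate (0.773) and the medium-chain enzymes Acsm5 (0.702) and Acsm3 (0.754). Only Acss3, named after its value was seen, was at or below the ratio of Acot4, at 0.468. Of 13 genes of coenzyme A synthesis and breakdown, the 2 pantetheinase genes Vnn1 (0.537) and Vnn3 (0.630) were listed.

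Peroxisomal fatty acid oxidation, the pathway that shares its compartment with the products of Acot3 and Acot4, had 7 of 18 genes listed. All were lower, at ratios of 0.522 to 0.813. Their median of 0.715 was above the 0.686 of all listed genes. It was below the 0.729 to 0.768 of listed genes at the levels from 1000 to 100000 counts. The thiolase gene Acaa1b stood at 0.715, the carnitine octanoyltransferase gene Crot at 0.690 and the bifunctional enzyme gene Ehhadh at 0.653. Abcd2, a peroxisomal fatty acid transporter gene named after its value was seen, was the only one at or below the ratio of Acot4 (0.522). Mitochondrial fatty acid oxidation had 6 of 20 genes listed, all lower, at ratios of 0.479 to 0.799. Their median of 0.783 was above that of all listed genes and above those of both these levels. The acyl-CoA dehydrogenase genes Acadm (0.793) and Acadl (0.749), the electron transfer gene Etfdh (0.799) and the reductase gene Decr1 (0.789) were the most abundant. Only Cpt1b, also named after its value was seen, was at or below the ratio of Acot4 (0.479).

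Among 15 other known targets of PPAR-alpha, 6 were listed and all were lower, beside 89.4% of all listed genes. Their median ratio of 0.453 is the midpoint between Cyp4a31 and Cyp4a32. Both were named after their values were seen. The median and the count of 6 follow in part from that choice, and are no comparison with all listed genes. The fatty acid omega-hydroxylase genes Cyp4a10 and Cyp4a14 came nearest to Acot3 in size. Cyp4a10 went from 1600.06 to 279.875 counts (0.175), and Cyp4a14 from 1073.8 to 219.5 counts (0.204). Cyp4a31 (0.417) and Cyp4a32 (0.490), named after their values were seen, also lay below Acot4, whereas the fatty acid transporter gene Cd36 (0.607) and the lipase inhibitor gene Angptl4 (0.763) did not. None of the listed genes in these lists had a ratio below that of Acot3. Of 13 nuclear receptor and coregulator genes, Pparg (0.650) and the corepressor gene Ncor1 (0.804) were listed, while Ppara itself has no value here.

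**Figure D5:**
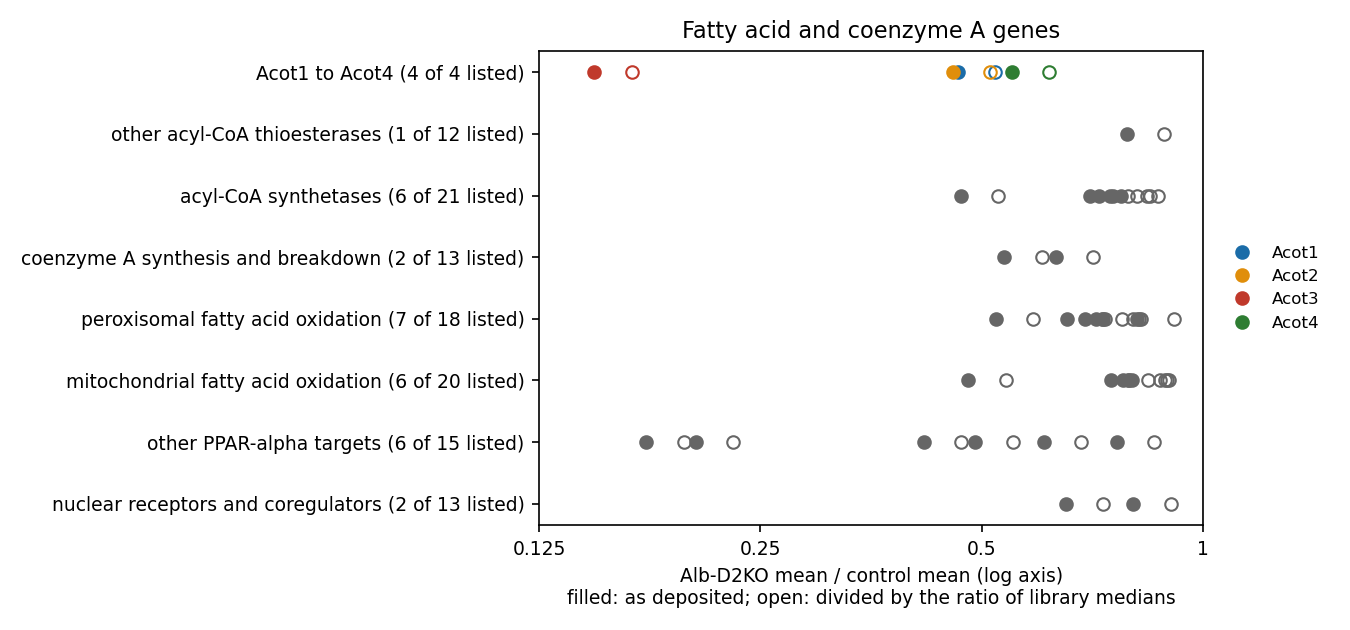
Ratio of Alb-D2KO to control mean (log axis) for each listed gene of the fatty acid and coenzyme A lists, as deposited (filled) and divided by the ratio of library medians (open). Acot1 to Acot4 are coloured, and only Cyp4a10 (0.175) and Cyp4a14 (0.204) among the other genes come near Acot3 (0.149).

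Markers of liver cell types were read the same way. None of 6 hepatocyte markers, 5 Kupffer cell markers or 5 stellate cell markers was listed, so these have no value here and the labelled tissue was not checked against them. Of 5 endothelial markers, Stab2 (0.805) and Kdr (0.789) were listed, and their summed count went from 5678.35 to 4532.24. Of 4 cholangiocyte markers, Sox9 was higher in Alb-D2KO, at 180.8 and 273 counts (1.51). Of 5 lymphocyte and neutrophil markers, Cd3e was listed, at 17.8 and 9.25 counts (0.520). The part of cell composition in the values of the cluster was not tested.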

How the data were processed

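RNA was extracted from frozen liver, and samples with an integrity number above the study's limit were sequenced as paired ends. Reads were aligned with STAR to GENCODE M24 on mm10 and quantified in Partek Flow by expectation maximisation. The normalization named by the study (absolute value) does not scale for depth. The deposited gene table gives the estimated count summed over libraries and the mean estimated count per genotype. In 1525 of 1525 genes both means, each multiplied by its number of libraries, added up to the summed count within 0.001. The authors' table also holds their own p-values, false discovery rates and fold changes, and 2 deposited tables hold their gene set and pathway enrichment results. None of these were used. The deposited library summaries give read counts, the percent of reads inside exons, and the mean, median and upper quartile of the estimated counts over genes, and 10 further per-library columns were not used. No value per gene and library was analysed here, so no count model was fitted.

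Ratios, exact binomial 95% intervals, shares and exact two-sided permutation tests of depth (126 splits of 9 libraries, smallest possible p = 0.0159) were computed with Python 3.11.15, pandas 2.3.3, NumPy 2.4.6 and SciPy 1.17.1, and tested on simulated data. The intervals treat estimated counts as counts and cover counting error only. P-values compare the difference between genotypes with the differences over relabelled splits of these libraries. Gene positions came from GENCODE M21, also on mm10, where 1496 of 1525 symbols matched. Coding parts were aligned with Biopython 1.88, and words of 31 bases were matched on both strands. Promoter windows came from RefSeq, which held all 4 members, and motifs were searched on both strands.

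Besides Acot1 to Acot4, values are given for listed thioesterases, listed genes within 1 Mb, the 4 most abundant listed genes of each list, and the 3 listed genes with at least 1000 counts nearest in log2 ratio to the summed cluster. The value of 1 gene that this rule names is not reported here. The members and lists were chosen with earlier results of these data known. Replicate numbers follow accession order and pair no samples. Alternatives covered the measure of depth, length, weighting, count minimum and each library left out.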

Additional observations from a re-analysis of the deposited data

Results flagged for a closer look

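Of 12 sets of library values examined, 1 held a library apart from its group, where chance gives about 0.6 (1 in 20). Alb-D2KO replicate 1 had 50322325 total reads, the next highest of its group had 41723927, and the gap was 0.852 of the whole range of that group. The genotype means of Acot1 to Acot4 include this library.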

How the results depend on the processing

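All 4 members and their sum stayed lower in Alb-D2KO under every alternative run. No alternative could have changed this direction, with member ratios of 0.149 to 0.549 and depth ratios of 0.890 to 0.932. The ratio of the sum (0.495) became 0.531, 0.551, 0.537 and 0.557 after division by the ratio of assigned reads, total reads, upper quartiles and medians, 0.471 per kilobase of transcript, 0.470 per kilobase of merged exons (chosen after seeing the data), 0.363 as a geometric mean, 0.524 without Acot3 and 0.393 without Acot4. Acot1 (0.464) moved beyond its counting interval to 0.515, 0.503 and 0.521 with total reads, upper quartiles and medians. Acot4 (0.549) moved to 0.589, 0.610, 0.596 and 0.617 with the 4 measures of depth in that order. Acot2 and Acot3 stayed within their intervals. The share of listed genes at least 2-fold lower (16.3%) was 9.09% and 4.09% at count minimums of 100 and 1000, and 11.9%, 10.03%, 11.5% and 9.64% with the 4 measures of depth. The share of lower genes stayed between 89.4% and 90.1%. Division by depth could not change this share. The ratios of lower genes were at most 0.826, and the depth ratios were at least 0.890. The log2 difference in assigned reads (-0.10) ranged from -0.18 to -0.06 when 1 library was left out, and passed the test in none of these fits. It was -0.18 without Alb-D2KO replicate 1 (exact permutation p = 0.0714), -0.06 without control replicate 3 and -0.07 without Alb-D2KO replicate 3. Member ratios could not be recomputed without a library, because only genotype means were used, so the spread between animals is not known for them. No paired analysis was possible because the replicate numbers follow accession order. Depth limits Acot2 and Acot3 in Alb-D2KO most, at means of 53.8 and 26.9 counts.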
